A study of Mus musculus with 12 samples.

Results

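The genes described here are 10 markers of the liver sinusoidal endothelial cell, namely *Stab1*, *Stab2*, *Clec4g*, *Lyve1*, *Kdr*, *Oit3*, *Fcgr2b*, *Eng*, *Pecam1* and *Sox17*. They were chosen by name as the rows of the gene count table that carry these mouse symbols, 10 of the 54838 genes listed, and all 10 were detected and tested. RNA had been sequenced from the livers of 12 female C57BL/6J mice aged 8 to 14 weeks, in 4 groups of 3. The control mice drank plain water for 7 days and were then injected intraperitoneally with PBS (water-PBS). A second group drank water with 25 mM ZnSO4 for the same 7 days before PBS (zinc-PBS), the third drank plain water and was injected with 200 µg dexamethasone (water-Dex), and the fourth received both zinc and dexamethasone (zinc-Dex). Dexamethasone (Dex) is a synthetic agonist of the glucocorticoid receptor, and every liver was taken 2 h after the injection. Each library is whole liver from 1 mouse, so the markers were read within a bulk tissue made mostly of hepatocytes.

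Liver sinusoidal endothelial cells line the hepatic sinusoids, the wide capillaries in which portal and arterial blood mix and meet the hepatocytes. They differ from other capillary endothelium by open fenestrae, the lack of a basement membrane and an exceptional capacity for clearance by scavenger receptors. Their identity is known to depend on VEGF signalling from hepatocytes, on BMP9 signalling through endoglin, and on transcription factors such as GATA4 and MAF. The 10 markers fall into roles that order the account below: endocytic and scavenger receptors (*Stab1*, *Stab2*, *Clec4g*, *Lyve1*, *Fcgr2b*), receptors and co-receptors of growth factors (*Kdr*, *Eng*), an adhesion molecule (*Pecam1*), a zona pellucida domain protein (*Oit3*) and a transcription factor (*Sox17*).

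The bases upstream of 2 members are shown because their levels parted under Dex, *Kdr* falling and *Eng* not passing the test, from windows of similar base composition (61.6% and 62.4% G or C). They were read from RefSeq promoter windows on GRCm38.p6, written 5′ to 3′ in the direction of transcription and kept to bases outside the GENCODE gene. The *Kdr* bases lie at chr5:75978459-75978705 on the minus strand and those of *Eng* at chr2:32646345-32646594 on the plus strand, and capitals mark motif matches.
Kdr: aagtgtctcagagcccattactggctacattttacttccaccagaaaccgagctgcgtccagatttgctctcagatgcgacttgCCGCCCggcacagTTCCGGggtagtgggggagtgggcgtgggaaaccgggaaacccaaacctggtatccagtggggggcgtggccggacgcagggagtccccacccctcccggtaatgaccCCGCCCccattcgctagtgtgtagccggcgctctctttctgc
Eng: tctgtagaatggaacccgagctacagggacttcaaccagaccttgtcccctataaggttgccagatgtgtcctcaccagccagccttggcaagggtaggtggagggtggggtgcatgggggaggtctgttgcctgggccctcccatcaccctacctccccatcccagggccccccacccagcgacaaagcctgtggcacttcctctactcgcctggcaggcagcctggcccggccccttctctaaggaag
The RefSeq windows of 6 members (*Stab1*, *Stab2*, *Clec4g*, *Kdr*, *Fcgr2b* and *Eng*) were searched over 250 bases on both strands for a glucocorticoid receptor element core (ACANNNTGT), a GATA site (AGATAA), an ETS site (CCGGAA), a SOX site (AACAAT) and a KLF or SP site (GGGCGG), and no matches overlapped. Of all 32817 promoter windows, these letters stood in 5.84%, 9.99%, 12%, 9.42% and 32.7%. *Kdr* held 1 match to the ETS letters, 147 bases before its start, and 2 to the KLF or SP letters, the nearer 39 bases before it. None of the 5 strings stood in the windows of the other 5 members. The *Fcgr2b* window lies wholly inside its GENCODE gene, as do 83 bases of the *Stab2* window and 3 of the *Kdr* window. These bases are upstream of the RefSeq start only. A match or its absence describes these letters in these windows only. *Lyve1*, *Oit3*, *Pecam1* and *Sox17* were not searched.

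Levels are given as normalized read counts, the count of a gene divided by a size factor for its library, from total counts of 9091152 to 12303527 per library. Differences were tested with the Wald test of DESeq2 in 1 fit of all 12 libraries, with Benjamini-Hochberg adjustment over all genes tested. A gene passed at an adjusted p under 0.05, and was called at that p with an absolute log2 fold change above 0.8. Of the markers themselves, 9 of the 10 had group means of 148 normalized counts or more, and *Sox17* had group means of 21.5 to 29.3. Since they were chosen by name, their detection is no check of the identity of the tissue. Of 11 genes listed as markers of large vessels and lymphatics, 7 averaged 11.6 normalized counts or less, among them the lymphatic gene *Pdpn* (group means of 3.03 to 5.09) and *Ccl21a*, which was at 0 in all libraries. The other 4 were *Vwf* (group means of 94.0 to 161), *Gja4* (55.3 to 221), *Thbd* (100 to 545) and *Prox1* (862 to 1736), the last of which hepatocytes also express.

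Under Dex, 2 of the 10 markers changed past both limits, in opposite directions, with and without zinc. *Lyve1* rose and *Kdr* fell in water-Dex against water-PBS, where 9.68% of all genes tested were called, and likewise in zinc-Dex against zinc-PBS, where 9.68% were called as well. Both were also called in zinc-Dex against water-PBS, against 11.2% of all genes, and when the Dex effect was averaged over both waters, against 10.3%. At an adjusted p under 0.05 alone, 3 markers passed in water mice (21.6% of all genes) and 3 in zinc mice (20.1%). In the averaged comparison, with 6 mice against 6, 6 markers passed, 3 up and 3 down, where 28.8% of all genes passed. The median log2 fold change of the 10 was 0.04 in that comparison, and that of all genes tested was -0.02. The 8 markers other than *Lyve1* and *Kdr* lay between -0.28 and 0.25.

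**Figure D1:**
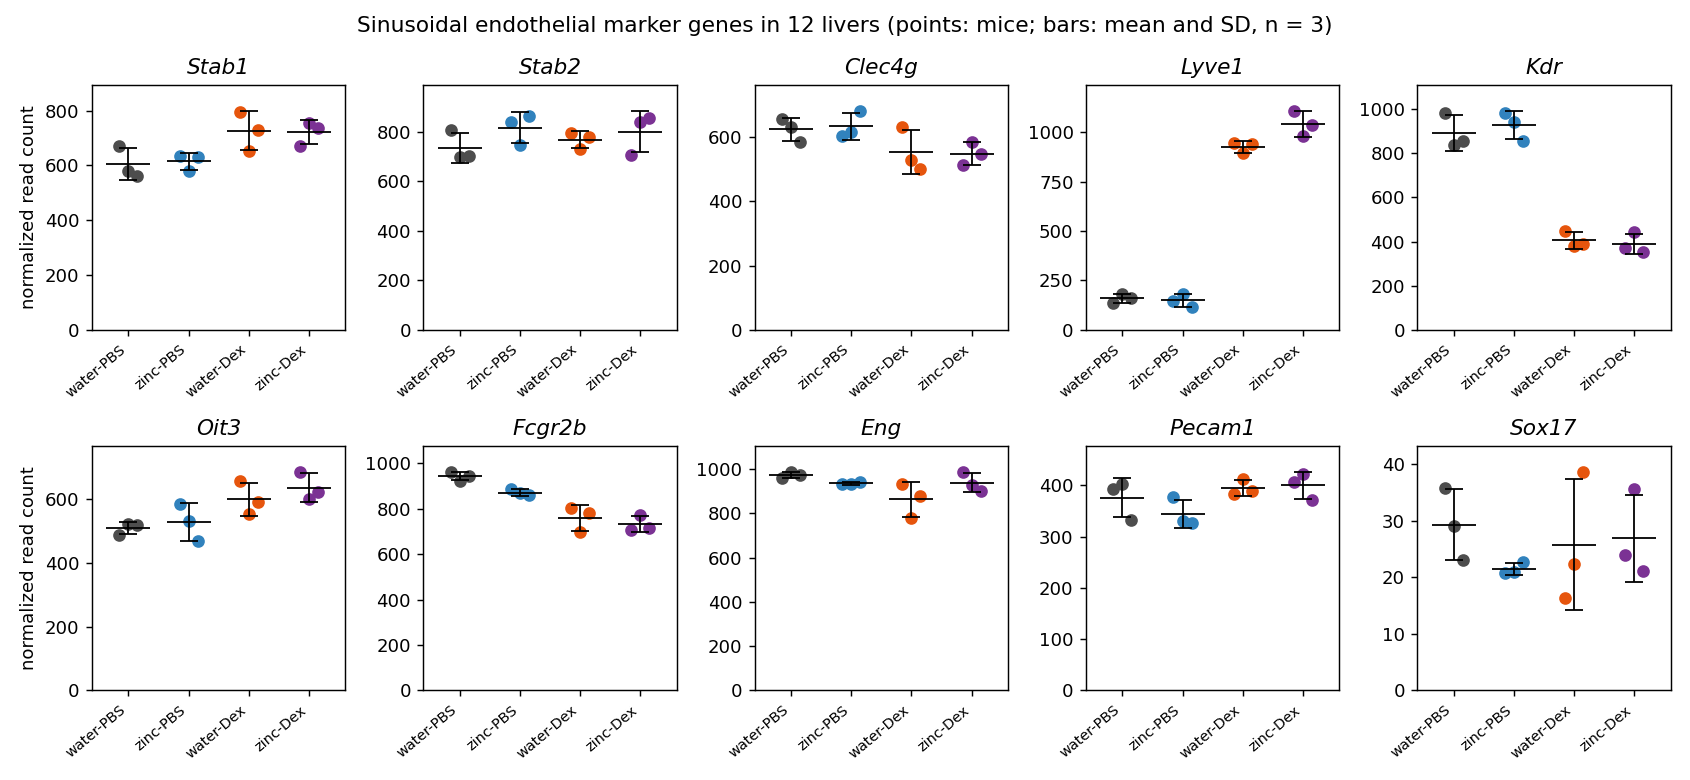
Normalized read counts of the 10 marker genes (y axes, from 0) in the 4 groups (x axes). Points are mice, and black bars are the mean and SD of 3 mice. *Lyve1* in the 6 Dex-injected mice (893 to 1108) stands above the 6 PBS-injected mice (116 to 182), *Kdr* stands below them (355 to 448 against 837 to 984), and the other panels show small shifts or none.

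Among the endocytic receptors, *Lyve1* was the marker that moved most. *Lyve1* (ENSMUSG00000030787, chromosome 7, 110850607 to 110863239, minus strand, GRCm38) encodes a membrane receptor for hyaluronan, known from lymphatic vessels and from sinusoidal endothelium. Its normalized counts were 135, 182 and 163 in the water-PBS mice and 148, 181 and 116 in the zinc-PBS mice. They were 947, 893 and 939 in the water-Dex mice and 1108, 980 and 1040 in the zinc-Dex mice. All 6 Dex-injected mice were far above all 6 PBS-injected mice, and within each injection the zinc and water mice overlapped under PBS and did not under Dex. The log2 fold change was 2.53 (SE 0.142, adjusted p = 1.2e-68) in water mice, a 5.78-fold increase. It was 2.81 (SE 0.141, adjusted p = 3.9e-86) in zinc mice, a 7.02-fold increase. The zinc-Dex mice differed from the water-Dex mice by a log2 fold change of 0.17 (95% interval -0.08 to 0.42, adjusted p = 0.76), and the interaction, 0.28 (-0.11 to 0.67), did not pass either (adjusted p = 0.999). Averaged over both waters the increase was 6.37-fold (95% interval 5.56 to 7.30), which placed *Lyve1* as number 134 from the top of 17093 genes tested. In whole liver, a change in the number of cells that express a gene and a change in its RNA per cell cannot be told apart.

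The 2 stabilins did not share this behaviour. *Stab2* (ENSMUSG00000035459, chromosome 10, 86841198 to 87008025) encodes the main hyaluronan clearance receptor of the sinusoid, and so binds the same glycosaminoglycan as the product of *Lyve1*. Its counts were 805, 698 and 700 in water-PBS, 840, 744 and 862 in zinc-PBS, 794, 731 and 779 in the water-Dex mice, and 704, 840 and 854 in zinc-Dex mice. The 4 groups overlapped, and the averaged Dex difference was a log2 fold change of 0.02 (95% interval -0.13 to 0.17, adjusted p = 0.9). *Stab1* (ENSMUSG00000042286, chromosome 14, 31139013 to 31168641) encodes the related scavenger receptor stabilin-1, which is also made by some macrophages. It had 672, 581 and 561 counts in water-PBS, 634, 578 and 631 in zinc-PBS, 796, 653 and 729 in the water-Dex mice, and 671, 755 and 735 in zinc-Dex mice. Most Dex-injected mice were above the PBS-injected ones, but the lowest Dex-injected mouse (653) lay under the highest PBS-injected mouse (672). The rise of *Stab1* was small, 0.25 on the log2 scale (SE 0.0756, adjusted p = 0.00541) when averaged, and it did not pass in water mice (0.26, adjusted p = 0.0598) or in zinc mice (0.23, adjusted p = 0.118) taken alone.

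*Fcgr2b* (ENSMUSG00000026656, chromosome 1, 170958617 to 170976547) encodes the inhibitory Fc gamma receptor through which sinusoidal endothelium clears small immune complexes, and which B cells and Kupffer cells also carry. Its counts were 961, 924 and 944 in water-PBS, 885, 868 and 859 in zinc-PBS, 803, 696 and 781 in the water-Dex mice, and 706, 773 and 717 in zinc-Dex mice. All 6 Dex-injected mice were below all 6 PBS-injected mice, so that *Lyve1*, *Kdr* and *Fcgr2b* were the 3 markers of 10 with no overlap between the injections, a pattern found in 17.4% of all genes tested. *Fcgr2b* fell by 0.28 on the log2 scale (SE 0.058, adjusted p = 1.2e-05) when averaged, by 0.31 in water mice (adjusted p = 0.00135) and by 0.25 in zinc mice (adjusted p = 0.0147). The pass in zinc mice was kept in 12 of 19 other settings, and was lost without zinc-PBS replicate 1, 2 or 3 (adjusted p = 0.0776, 0.0652 and 0.0528), without zinc-Dex replicate 1 or 3 (0.0988 and 0.094), with a replicate block (0.0884) and with the 6 libraries alone (0.1). Beside this, the summed level of the 3 B cell markers *Cd79a*, *Cd79b* and *Ms4a1* was 20.9 to 31.5 normalized counts in water-PBS, 26.2 to 38.8 in zinc-PBS, 3.96 to 15.2 in water-Dex and 9.997 to 14.1 in zinc-Dex mice, and its part in the fall of *Fcgr2b* was not tested.

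*Clec4g* (ENSMUSG00000074491, chromosome 8, 3707064 to 3720651) encodes LSECtin, a C-type lectin of sinusoidal and lymph node endothelium. It had 656, 632 and 586 counts in water-PBS, 604, 616 and 682 in zinc-PBS, 633, 531 and 503 in the water-Dex mice, and 513, 584 and 549 in zinc-Dex mice. The water-Dex mouse with 633 lay inside the PBS range, and the other 5 Dex-injected mice lay below it. The averaged fall of *Clec4g*, -0.19 on the log2 scale (SE 0.0773), stood at the threshold (adjusted p = 0.0487). It passed in 6 of 18 other settings, and leaving out 1 library gave adjusted p-values from 0.00748 (without water-Dex replicate 1) to 0.158 (without water-Dex replicate 3).

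*Kdr* (ENSMUSG00000062960, chromosome 5, 75932827 to 75978458, minus strand) encodes VEGFR2, the main signalling receptor for VEGF-A on endothelium. It had 984, 837 and 854 counts in the water-PBS mice and 983, 941 and 857 in the zinc-PBS mice. It had 448, 380 and 387 in the water-Dex mice and 369, 441 and 355 in the zinc-Dex mice. Every Dex-injected mouse was below every PBS-injected mouse, and the zinc and water mice overlapped within each injection. *Kdr* changed by -1.14 on the log2 scale in water mice (SE 0.117, adjusted p = 1.3e-20) and by -1.26 in zinc mice (SE 0.117, adjusted p = 4.8e-25). Averaged, its level under Dex was 0.436 of that under PBS (log2 fold change -1.20, SE 0.0826, adjusted p = 1e-45), number 849 from the bottom of the genes tested. The Dex effects in zinc and water mice differed by -0.12 (95% interval -0.44 to 0.21, adjusted p = 0.999).

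The other growth factor receptor component, *Eng* (ENSMUSG00000026814, chromosome 2, 32646595 to 32682669), encodes endoglin, the co-receptor for BMP9 and BMP10. Its counts were 961, 987 and 975 in water-PBS, 935, 932 and 944 in zinc-PBS, 934, 777 and 880 in the water-Dex mice, and 985, 930 and 900 in zinc-Dex mice. The injections overlapped, the water-Dex mouse with 777 standing lowest, and the averaged difference was -0.09 (95% interval -0.20 to 0.03, adjusted p = 0.306). *Pecam1* (ENSMUSG00000020717, chromosome 11, 106654217 to 106750628), the junctional adhesion molecule CD31 of endothelium and platelets, had 393, 402 and 332 counts in water-PBS, 376, 330 and 326 in zinc-PBS, 384, 412 and 389 in the water-Dex mice, and 406, 422 and 371 in zinc-Dex mice. Again the injections overlapped, with an averaged difference of 0.14 (95% interval -0.01 to 0.30, adjusted p = 0.186). The intervals of *Eng*, *Pecam1* and *Stab2* do not reach 0.8 on the log2 scale in either direction. Exons of *Eng* overlap those of *Fpgs* on the opposite strand, which had a mean of 1421 normalized counts, and those of *Stab1* overlap *Nt5dc2* (mean 32.2). Whether the counting used strand is not given in the sources used here, so the levels and changes of *Eng* and *Stab1* may hold reads of these partners. In the averaged Dex comparison *Fpgs* rose by 0.21 (adjusted p = 0.0327) and *Nt5dc2* by 0.59 (adjusted p = 0.0293). Their part in the values of *Eng* and *Stab1* was not tested.

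*Oit3* (ENSMUSG00000009654, chromosome 10, 59422958 to 59441778), whose product carries a zona pellucida domain and is made by sinusoidal endothelium, had 487, 521 and 518 counts in water-PBS, 585, 530 and 468 in zinc-PBS, 655, 552 and 589 in the water-Dex mice, and 684, 599 and 623 in zinc-Dex mice. The Dex-injected mice were shifted upward, with overlap through the zinc-PBS mouse at 585. The averaged rise was 0.25 on the log2 scale (SE 0.0776, adjusted p = 0.00625). *Oit3* also passed in zinc-Dex against water-PBS (0.32, adjusted p = 0.0193), in 14 of 19 other settings, and lost that pass without water-PBS replicate 1 (0.0997) or 2 (0.054), without zinc-Dex replicate 1 (0.124) or 3 (0.0545), and with the 6 libraries alone (0.0523). *Sox17* (ENSMUSG00000025902, chromosome 1, 4490931 to 4497354), a transcription factor of arterial and sinusoidal endothelium, was the scarce member. It had 36, 29 and 23 counts in water-PBS, 21, 21 and 23 in zinc-PBS, 16, 22 and 39 in the water-Dex mice, and 24, 36 and 21 in zinc-Dex mice. All groups overlapped except water-PBS and zinc-PBS, and the averaged Dex difference, 0.07, had a 95% interval from -0.44 to 0.57, so that a change of the size seen for *Kdr* would lie outside it but one as small as that of *Fcgr2b* was not detectable at this depth.

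**Figure D2:**
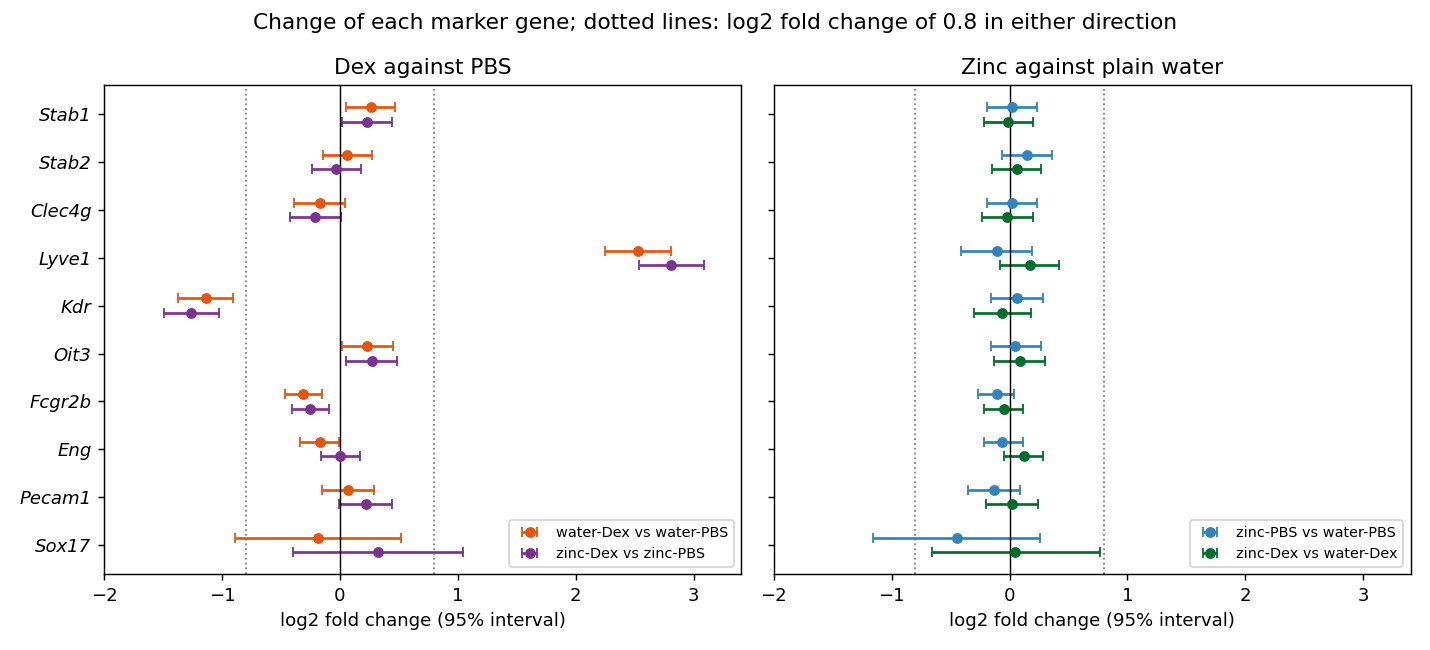
Log2 fold changes with 95% intervals (x axes) of the 10 marker genes (y axis), for Dex against PBS in water and in zinc mice (left) and for zinc against plain water in PBS-injected and in Dex-injected mice (right). Dotted lines mark 0.8 in either direction, and only the points of *Lyve1* and *Kdr* lie beyond them on the left, while all intervals on the right include 0.

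Beside the small rises of *Stab1* and *Oit3*, markers of hepatocytes and red blood cells shifted in the same direction. Of 10 hepatocyte markers, 7 rose and none fell in the averaged comparison, in which 28.8% of all genes tested passed in either direction. Their median log2 fold change was 0.21. Their summed level was 1249000 to 1426000 normalized counts in water-PBS, 1308000 to 1434000 in zinc-PBS, 1595000 to 1699000 in water-Dex and 1666000 to 1752000 in zinc-Dex mice. *Alb* made up most of this sum, with group means of 1060000, 1075000, 1305000 and 1315000 in the same order. Of 6 red blood cell genes, 4 rose and none fell, with a median of 0.66 and sums of 889 to 1561, 778 to 968, 1214 to 2136 and 1363 to 1513 in the same order of groups. Of 12 stellate cell markers, 4 rose and 2 fell, with a median of 0.13 and sums of 6530 to 6749, 6095 to 6236, 7074 to 7275 and 6852 to 7975. The part of these shifts in the rises of *Stab1* and *Oit3* was not tested. Of 14 Kupffer cell markers, 1 passed, a smaller share than among all genes, namely *Cd163*, a haemoglobin scavenger receptor of macrophages (0.85, adjusted p = 9e-15), and the median was -0.01. The Kupffer sums were 7041 to 9738, 8319 to 8672, 7976 to 9987 and 8265 to 9196 normalized counts. The change of *Cd163* was above 0.8 in 16 of 18 other settings, and was 0.78 without water-PBS replicate 3 and 0.80 without water-Dex replicate 1.

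No marker passed the test for zinc. In zinc-PBS against water-PBS, 0 of 10 were called by DESeq2, where 0.138% of all genes were, and 0 of 10 had an unadjusted p under 0.05. In zinc-Dex against water-Dex, 0 of 10 were called (0.469% of all genes), and again 0 of 10 had an unadjusted p under 0.05. Averaged over both injections, 0 of 10 passed (2.47% of all genes) or were called (0.333%), also at an unadjusted p. The interaction of zinc and Dex was called for 0 of 10 markers (0.0191% of all genes), with no unadjusted p under 0.05. edgeR's quasi-likelihood test also called 0 in each of these comparisons. In the averaged zinc comparison, the widest interval belonged to *Sox17* (-0.70 to 0.30), followed by *Lyve1* (-0.17 to 0.22).

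Per kilobase of exon in the GENCODE gene, which allows levels of different genes to be compared roughly, the order of the markers changed with Dex mainly through *Lyve1* and *Kdr*. The length is that of all annotated exons together, and the places of *Eng* and *Stab1* may include reads of *Fpgs* and *Nt5dc2*. In water-PBS mice *Clec4g* (254 ± 14.4 normalized counts per kb, SD, n = 3) and *Eng* (241 ± 3.28) stood highest and overlapped. *Oit3* (183 ± 6.78), *Fcgr2b* (163 ± 3.22), *Kdr* (98.8 ± 8.88) and *Stab2* (83.9 ± 7.03) followed, with no overlap between neighbours. *Pecam1* (60.3 ± 6.15), *Stab1* (58.8 ± 5.76) and *Lyve1* (54.8 ± 8.01) overlapped, and *Sox17* (6.14 ± 1.32) was lowest. Zinc-PBS mice had the same leading 6 in the same order, with *Kdr* (103 ± 7.09) and *Stab2* (93.1 ± 7.17) overlapping. In water-Dex mice *Lyve1* led with 317 ± 9.94 per kb, as against the ninth place in water-PBS, and in zinc-Dex mice it led with 357 ± 22.0, in both above the highest mouse of the next gene. *Clec4g*, *Oit3* and *Eng* followed in both Dex groups between 213 and 232 per kb, overlapping one another. *Kdr*, the fifth in water-PBS, was the ninth in water-Dex (44.8 ± 4.14) and in zinc-Dex (43.0 ± 5.12), below *Stab1* and *Pecam1* and above *Sox17* alone. The ratio of *Lyve1* to *Kdr* per kb was 0.562 ± 0.125 in water-PBS and 0.493 ± 0.0913 in zinc-PBS mice, and 7.11 ± 0.503 in water-Dex and 8.41 ± 1.33 in zinc-Dex mice.

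**Figure D3:**
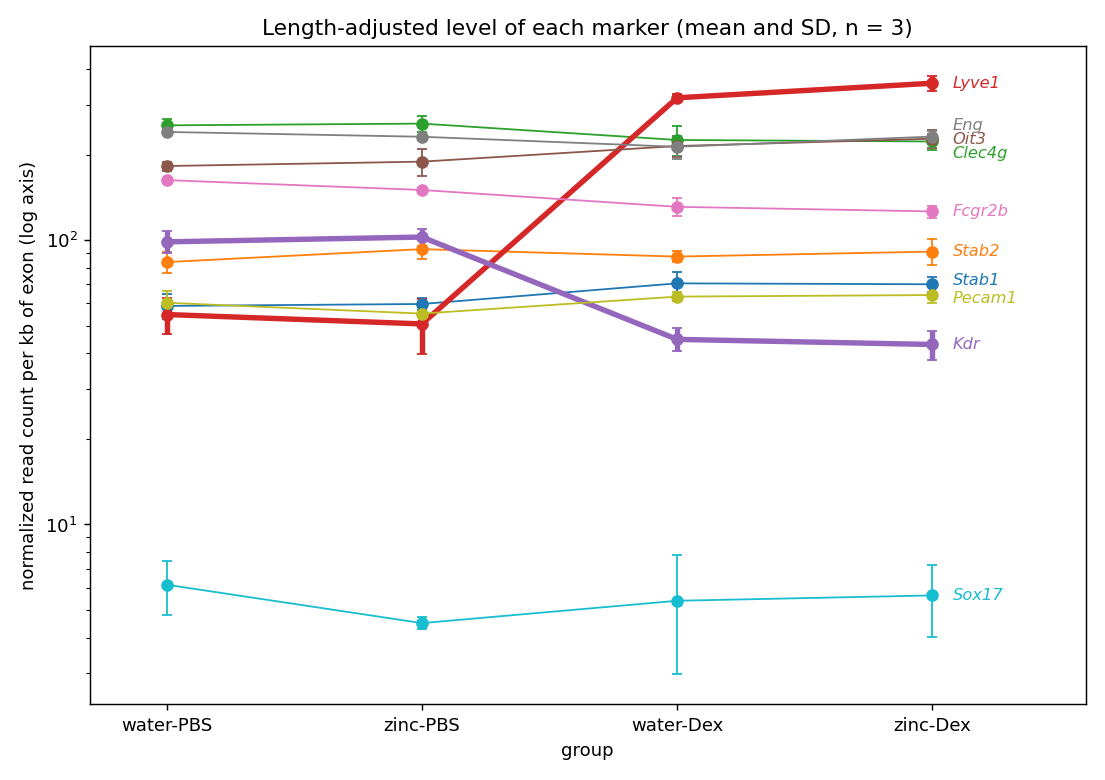
Normalized read count per kb of exon (y axis, log scale) of the 10 marker genes in the 4 groups (x axis), as mean and SD of 3 mice, joined by lines for each gene. *Lyve1* moves from the ninth place in water-PBS to the first in both Dex groups, and *Kdr* from the fifth to the ninth.

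The summed level of the 10 markers was 5847 ± 222 normalized counts in water-PBS, 5840 ± 149 in zinc-PBS, 6023 ± 382 in water-Dex and 6232 ± 111 in zinc-Dex mice. The 8 markers without *Lyve1* and *Kdr* summed to 4795 ± 167, 4764 ± 134, 4692 ± 321 and 4801 ± 125 in the same order, and the ranges of the mice in the 4 groups overlapped. Within groups, the markers differed in how they varied from mouse to mouse. The correlation of 2 markers over the 12 libraries, after subtraction of each group's mean, had a median r of 0.18 over the 45 pairs and was positive in 30 of them, from -0.70 to 0.86 (*Stab1* with *Stab2*), as a description of libraries that share their scaling. The genes outside the markers whose group-centred levels were most like the mean of the 10 were *Axl* (r = 0.949 over 12 libraries, and 0.902 without the 2 libraries farthest from the median), *Zfp111* (0.915), *Clec7a* (0.914), *Msr1* (0.907) and *Sp2* (0.902), of 9574 genes compared. Without those 2 libraries, r was 0.822 for *Zfp111*, 0.828 for *Clec7a*, 0.906 for *Msr1* and 0.806 for *Sp2*.

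Genes of the sinusoid and of its signalling pathways were described by lists, which are compared here with the 10.3% of all genes called and the 28.8% that passed in the averaged Dex comparison. Some lists also hold markers, so their counts repeat changes given above. *Stab1*, *Stab2*, *Fcgr2b*, *Clec4g* and *Lyve1* are among the scavenger receptors, *Eng* and *Pecam1* among the pan-endothelial genes and *Sox17* among the transcription factors. List sizes include untested genes, as 9 of the 11 large-vessel and lymphatic genes were tested. Of 16 other sinusoidal endothelial genes, 5 rose and 4 fell, of which 2 and 3 were called, with a median log2 fold change of 0.08. Among them *Maf*, a transcription factor of sinusoidal identity, rose by 1.01 (SE 0.0695, adjusted p = 9.3e-46), and so did *Aass* (1.17), a lysine-degrading enzyme that hepatocytes also make. *Gata4*, a further transcription factor of sinusoidal identity, changed by -1.82 (SE 0.118, adjusted p = 1.3e-51), from 237 ± 31.1 normalized counts in water-PBS to 72.5 ± 4.21 in water-Dex mice. *Gpr182*, an atypical chemokine receptor, changed by -0.91 (SE 0.0769, adjusted p = 2.3e-30). *Ehd3*, an endocytic trafficking protein of the sinusoid, rose by 0.80 (adjusted p = 1.1e-26), just short of the limit on its fold change, and was called in 8 of 18 other settings. It was called in zinc mice (0.90, adjusted p = 6.3e-17) and not in water mice (0.69, adjusted p = 3.2e-10).

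Of 24 pan-endothelial genes, 6 rose and 4 fell, with 1 called in each direction and a median of 0.10. The endothelial nitric oxide synthase *Nos3* rose by 1.85 (SE 0.205, adjusted p = 5.7e-18), and the C-type lectin *Clec14a* changed by -1.03 (SE 0.118, adjusted p = 5e-17). The junction gene *Cdh5*, which encodes VE-cadherin, rose by 0.28 only (adjusted p = 0.00045). *Cdh5* lies outside the rule for naming and was chosen after its value was seen. *Esam* (0.73) and *Ramp2* (0.67) passed without being called in the averaged comparison. In zinc-Dex against zinc-PBS, 3 genes of this list were called upward and 1 downward, where 9.68% of all genes were called. Of 11 large-vessel and lymphatic genes, 3 rose and 3 fell, of which 2 and 3 were called. Thrombomodulin (*Thbd*), an anticoagulant surface receptor, rose by 2.34 (SE 0.167, adjusted p = 1.8e-42), from 104 ± 30.1 to 485 ± 112 normalized counts between zinc-PBS and zinc-Dex mice, and the gap junction gene *Gja4* rose by 1.73 (SE 0.235). *Prox1*, a transcription factor of lymphatic endothelium that hepatocytes also express, changed by -0.81 (adjusted p = 9.4e-10). The call of *Prox1* held in 11 of 18 other settings, and its value was between -0.73 (without zinc-PBS replicate 3) and -0.80 with a replicate block or without any of water-PBS replicates 1 and 3, zinc-PBS replicates 1 and 3, water-Dex replicate 1 and zinc-Dex replicate 1.

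**Figure D4:**
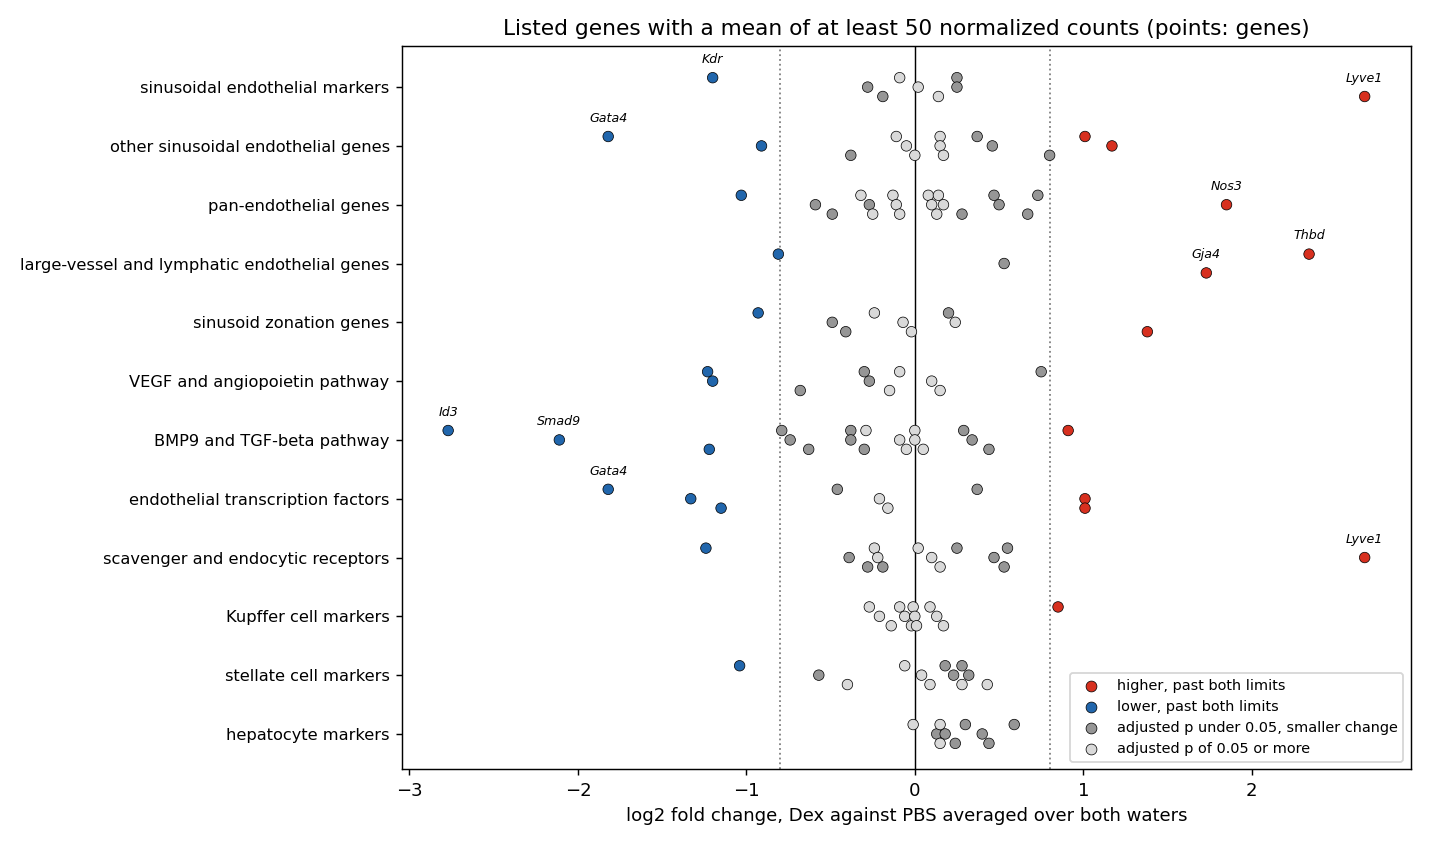
Log2 fold change for Dex against PBS averaged over both waters (x axis) of listed genes averaging 50 normalized counts or more, by list (y axis, points are genes). Red and blue points passed an adjusted p under 0.05 and 0.8 in either direction (dotted lines), dark grey points passed the p only, and *Lyve1* (2.67) is the highest of all points while *Id3* (-2.77) is the lowest.

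In the VEGF and angiopoietin pathway, to which *Kdr* belongs, 1 of 16 genes rose and 5 fell, with *Kdr* and *Plxnd1* called and a median of -0.20. *Plxnd1*, a semaphorin receptor of endothelium, changed by -1.23 (SE 0.0779, adjusted p = 1.6e-54). The VEGF-A decoy receptor *Flt1* rose by 0.75 (SE 0.0821, adjusted p = 2e-18), from 225 ± 21.3 to 361 ± 10.5 normalized counts between water-PBS and water-Dex mice, while the lymphatic VEGF receptor *Flt4* (0.15, adjusted p = 0.17) and the ligand *Vegfa* (-0.15, adjusted p = 0.132) did not pass. *Flt4* and *Vegfa* were picked for their place beside *Kdr* after their values were seen. In the BMP9 and TGF-beta pathway, to which *Eng* belongs, 4 of 21 genes rose and 10 fell, of which 1 and 4 were called, with a median of -0.29. *Id3*, a target of BMP signalling, changed by -2.77 (SE 0.185, adjusted p = 1.4e-48), *Smad9* by -2.11 (SE 0.179) and the ligand *Bmp10* by -1.22 (SE 0.172). The co-receptor betaglycan (*Tgfbr3*) rose by 0.91 (SE 0.0994, adjusted p = 2.5e-18).

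Of 23 endothelial transcription factors, 5 rose and 11 fell, of which 3 and 9 were called, with a median of -0.49. Besides *Gata4*, the fallen genes included the ETS factor *Elk3* (-1.33, adjusted p = 1.4e-28) and the venous factor *Nr2f2* (-1.15, adjusted p = 3.6e-22), and the shear-induced factor *Klf2* rose by 1.01 (adjusted p = 8.2e-10). *Sox7* (-1.11, adjusted p = 1.4e-05) and *Sox18* (-1.63, adjusted p = 4.8e-16), the close relatives of *Sox17*, fell as well, with means of 30.7 and 46.6 normalized counts that put them outside the rule for naming. Of 16 scavenger and endocytic receptors, 5 rose and 4 fell, with *Lyve1* and *Dab2* called and a median of 0.10. *Dab2*, an endocytic adaptor, changed by -1.24 (SE 0.0999, adjusted p = 9.5e-34). Of 14 sinusoid zonation genes, 2 rose and 6 fell, of which 1 and 4 were called, with a median of -0.16. The lipid chaperone *Fabp4* rose by 1.38 (SE 0.109, adjusted p = 1.3e-34) and the central-vein gene *Kit* changed by -0.93 (SE 0.153, adjusted p = 1.9e-08). In none of these lists was a gene called in either comparison of zinc with plain water at the same injection, or for the interaction. Not all listed genes were tested for zinc. In these 2 comparisons 5 of the 11 large-vessel and lymphatic genes and 19 and 20 of the 23 transcription factors were. At an adjusted p under 0.05 alone, 1 scavenger and endocytic receptor rose in zinc-Dex against water-Dex, where the share of all genes was not counted. With zinc averaged over both injections, 1 gene of the VEGF list and 1 of the BMP9 list rose, where 2.47% of all genes passed.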

How the data were processed

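Liver RNA of 12 mice was made into stranded TruSeq libraries and read from a single end on an Illumina NextSeq. Alignment to mm10 was done by the authors with HISAT2 2.0.4, and reads were counted per Ensembl gene with featureCounts, leaving out multimapping reads. The deposited values are raw counts for each mouse. Which annotation release and strand option they used is not given in the sources used here. Symbols, coordinates and exon lengths were taken from GENCODE M21 (GRCm38) for 54809 of 54838 genes, and sequences upstream of the RefSeq start for 6 of the 10 members. Groups came from the labels, which call the replicates biological.

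The members and gene lists were chosen with earlier results of these data known, and 1 listed gene is not reported here and was left out of its list. Counts were fitted with DESeq2 1.42.0 in R 4.3.3, as in the study's methods, with 1 coefficient per group over 12 libraries, unshrunken fold changes, independent filtering and Cook's distance at their defaults. Each treated group was compared with water-PBS, zinc-Dex also with both single treatments, and the interaction and the Dex and zinc effects averaged over the other factor were tested. Comparisons that share the same control mice are not independent. With 3 mice against 3, a rank-based test of 1 gene cannot pass. Each DESeq2 test borrows part of its dispersion from all genes, and its p-value sets the difference against the spread between these mice. The fits were tested on simulated counts. Total counts per library, 9091152 to 12303527, limit precision mainly for *Sox17*.

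Named were all 10 members, and of each other list up to 4 genes with the largest absolute change among those called in a comparison, if they averaged 50 normalized counts or more. Likeness to the members was Pearson's r of log2(normalized count + 1), centred by group, with their mean z-score. The replicates differed by 5.7 to 18.8 times counting noise (chi-square per degree of freedom), so none was a copy of another. Alternatives were edgeR 4.0.16 (quasi-likelihood, TMM, filterByExpr), TMM factors in DESeq2, a low-count filter (10 counts or more in 3 libraries or more), a replicate block, each library left out, the 6 libraries compared alone, and the fold change threshold, independent filtering or Cook's filter turned off.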

Additional observations from a re-analysis of the deposited data

How the results depend on the processing

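The calls of *Lyve1* and *Kdr* were kept in each of the alternatives run. Among alternatives that kept the fold change threshold, none called another marker: of 1470 log2 fold changes of members under alternatives, 0 gained a call, lost one or reversed a called direction, while 65 values that were never called changed sign. Without the fold change threshold, 6 members were called in the averaged Dex comparison, in place of 2, where 28.8% of all genes passed. In zinc-Dex against water-PBS 4 were called, in place of 2, and the share of all genes at that limit was not counted. Leaving out each of the 12 libraries in turn gave 2 called members in each Dex comparison and 0 in each zinc comparison and the interaction, the lowest and highest counts alike. With a replicate block the counts were also 2 and 0. No pairing of the mice by number was seen: over 9574 genes, group-centred levels of same-numbered mice correlated between -0.20 and 0.19 (median 0.03 over 18 pairs, 1 over 0.1), and those of other pairs at a median of 0.02. With 3 mice per group, this check cannot exclude pairing. Of the 29 named genes outside the markers, 4269 values included 37 that lost a call, 13 that gained one and 0 that reversed. The low-count filter left 13255 genes. The depth limits *Sox17*, whose intervals span more than 1 on the log2 scale in single Dex comparisons.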

Other observations

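The lists of B and T cell and of cholangiocyte markers are given here beside the 28.8% of all genes that passed in the averaged Dex comparison. Of 8 B and T cell markers, 3 fell in the averaged comparison and none rose, all of them B cell genes at means under 10 normalized counts: *Ms4a1* changed by -2.24 (adjusted p = 0.00086), *Cd79a* by -1.66 (adjusted p = 0.0227) and *Cd79b* by -1.12 (adjusted p = 0.0255). The T cell genes *Cd3e* (-0.93, adjusted p = 0.234) and *Cd3d* (-0.35, adjusted p = 0.721) did not pass. Of 6 cholangiocyte markers, 1 fell, *Sox9* (-0.78, adjusted p = 0.00559), and the median was -0.12. These low-count genes were named after their values were seen.

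Several sinusoidal genes under 50 normalized counts had larger changes than most markers. The tight junction gene *Cldn5* changed by -2.82 (SE 0.246, adjusted p = 1e-28), from 72.5 ± 1.17 normalized counts in water-PBS to 9.42 ± 1.55 in zinc-Dex mice, with no overlap between the injections. The Notch ligand *Dll4* changed by -1.18 (adjusted p = 4.3e-07), the Notch target *Heyl* by -2.04 (adjusted p = 5.5e-10), the Notch ligand *Jag1* by -0.87 (adjusted p = 1.4e-05) and the ephrin *Efnb2* by -0.98 (adjusted p = 5.7e-05). Not all listed genes this scarce fell. *Klf4* had 20.8 ± 6.6 normalized counts in water-PBS and 47.6 ± 3.6 in water-Dex mice. *Adgrg6* had a smaller difference, 33.8 ± 1.2 against 41.6 ± 5.3 in the same groups, given here without a test. Neither gene overlapped between the injections, nor did *Cldn5*, a pattern found in 17.4% of all genes tested. These genes were also named after their values were seen.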
